A study of Mus musculus with 6 samples.

Results

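Cycling CD8 T cells are cytotoxic T lymphocytes caught in the cell cycle. They were taken here from mammary tumours of the mouse line Py8119 by a fixed reading of single-cell UMI counts (a UMI is 1 captured RNA molecule). A member had at least 2 UMIs of Cd3d, Cd3e and Cd3g together, at least 1 of Cd8a and Cd8b1, none of Cd4, and at least 2 of Mki67 and Top2a. It also had at least 200 genes, at most 15% mitochondrial UMIs, and under 1% of its UMIs from C1qa, C1qb and C1qc. This gave 495 cells out of 2354 CD8 T cells and 40418 cells kept in all. These genes chose the cells, so their levels describe the members and support nothing further. The 1859 CD8 T cells with 0 or 1 UMI of Mki67 and Top2a are called the other CD8 T cells.

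A CD8 T cell that meets its antigen divides many times before its daughters become killers or long-lived memory cells. Division runs through S phase, when the MCM helicase and histone genes are used to copy DNA, and then G2 and M phase, when cyclin B, CDK1, kinesins and TOP2A condense and part the chromosomes. In chronic stimulation, as in tumours, T cells gain inhibitory receptors such as PD-1 (Pdcd1), TIM-3 (Havcr2) and LAG-3. A TCF1-positive (Tcf7) subset keeps the capacity to renew the pool.

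The study asked how loss of Mtdh (metadherin) in the tumour-bearing mouse bears on its immune cells. Live CD45+ cells of Py8119 tumours were loaded at about 15000 per library, with 1 library for each of 6 groups. The intact groups were Mtdh KO mice and Mtdh wild type (WT) mice. In the transplanted groups, Mtdh KO or WT recipients (hosts) carried Mtdh KO or WT bone marrow in all 4 combinations, named here by marrow and then host. The tumour grew for 4 weeks, and in the transplanted mice tumour cells were given 8 weeks after the marrow. All mice carried the same tumour line, and the sources used here do not say how many mice made a library, how the knockout was made, or how many host blood cells remained. An intact mouse has 1 genotype as host and as marrow. Each group has 1 library, so tests compare libraries, host and marrow comparisons reuse the same 6 libraries, and p-values measure only the spread between them. Library totals ran from 85616443 to 142779550 UMIs. Pairs of libraries shared 8 to 25 barcodes. The intact libraries were made with another Cell Ranger version than the transplanted ones, so version and transplantation cannot be told apart.

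The genes that chose the members are given first, as a description. Values of the 6 libraries are given in 1 order throughout: intact KO, intact WT, KO marrow in KO host, KO marrow in WT host, WT marrow in KO host, WT marrow in WT host. Cd8a was at 332, 252, 712, 531, 567 and 567 CPM (UMIs per 1000000 UMIs) in members. Cd3e, a chain of the T-cell receptor complex, was at 388, 231, 703, 615, 640 and 645 CPM. Macrophages here are kept cells with at least 1% C1q UMIs and no UMI of Cd3d, Cd3e or Cd3g. Their Cd3e level of 0 follows from that choice, which also leaves macrophages with RNA of these genes out of every macrophage value. Cd2, a T-cell adhesion receptor that the rule did not use, was at 77.1, 117, 147, 239, 210 and 234 CPM in members and 1.89 to 4.51 CPM in macrophages. Mki67, a coat protein of mitotic chromosomes, was at 289, 458, 417, 542, 653 and 545 CPM in members and at 5.54 to 10.9 CPM in the other CD8 T cells. Top2a, which untangles DNA before chromosomes part, was at 466, 338, 707, 953, 1188 and 878 CPM against 12.9 to 25.5 CPM. Division genes that the rule did not use were high in members too. Birc5, a subunit of the chromosomal passenger complex, was at 167, 135, 327, 394, 408 and 337 CPM against 0 to 9.16 CPM in the other cells. Pclaf, which binds the replication clamp PCNA, was at 254, 156, 501, 445, 586 and 545 CPM against 1.12 to 11.9 CPM. These levels are UMIs summed over the cells of a library, so they do not say whether single cells overlapped.

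Some members also carried macrophage RNA, and this touches every result below. The C1q genes are macrophage genes, and 71 members held a C1q share of at least 0.25% and 424 less, 18 of these between 0.1% and 0.25%. Of the other CD8 T cells 49, 3, 70, 3, 0 and 4 by library held at least 0.25%, and 10, 4, 71, 40, 17 and 11 lay between 0.1% and 0.25%, so that the limit falls in no gap there. The 71 were 33 of 90, 5 of 12, 32 of 318, 0 of 35, 0 of 19 and 1 of 21 members by library. Their median UMI count was 39197 in intact KO against 16318 in the members below 0.25%, and in KO marrow in KO host it was 27585 against 11850. The summed level of 11 macrophage markers in members was 18708, 30625, 8785, 4879, 3798 and 5105 CPM, and 1467, 2784, 2792, 4879, 3798 and 2554 CPM once the 71 were left out. The sum includes C1qa, C1qb and C1qc, which set the limit, so part of that fall follows from the choice of cells. No macrophage marker was at 0 in any library. Results are therefore also given for the low-C1q members (share under 0.25%), a limit chosen after seeing the data. Neutrophil markers stood out in KO marrow in WT host alone, with a sum of 1318 CPM over 5 genes against 19.1 to 88.4 CPM in the other libraries. Marker sums in members were 0 to 0.225 CPM over 4 erythroid genes, 27.2 to 99.3 CPM over 6 B-cell genes and 56.9 to 268 CPM over 6 NK-cell genes. Over 6 dendritic-cell genes they were 73.5 to 2557 CPM, and 62.7 to 425 CPM among members below 0.25% C1q. Over 6 genes of CD4 and regulatory T cells they were 130 to 575 CPM, although the rule held Cd4 at 0, and 130 to 1090 CPM below 0.25% C1q. Over 6 gamma-delta T-cell genes they were 32.0 to 238 CPM, and 0 to 273 CPM below 0.25% C1q. The rule did not exclude gamma-delta T cells.

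**Figure D1:**
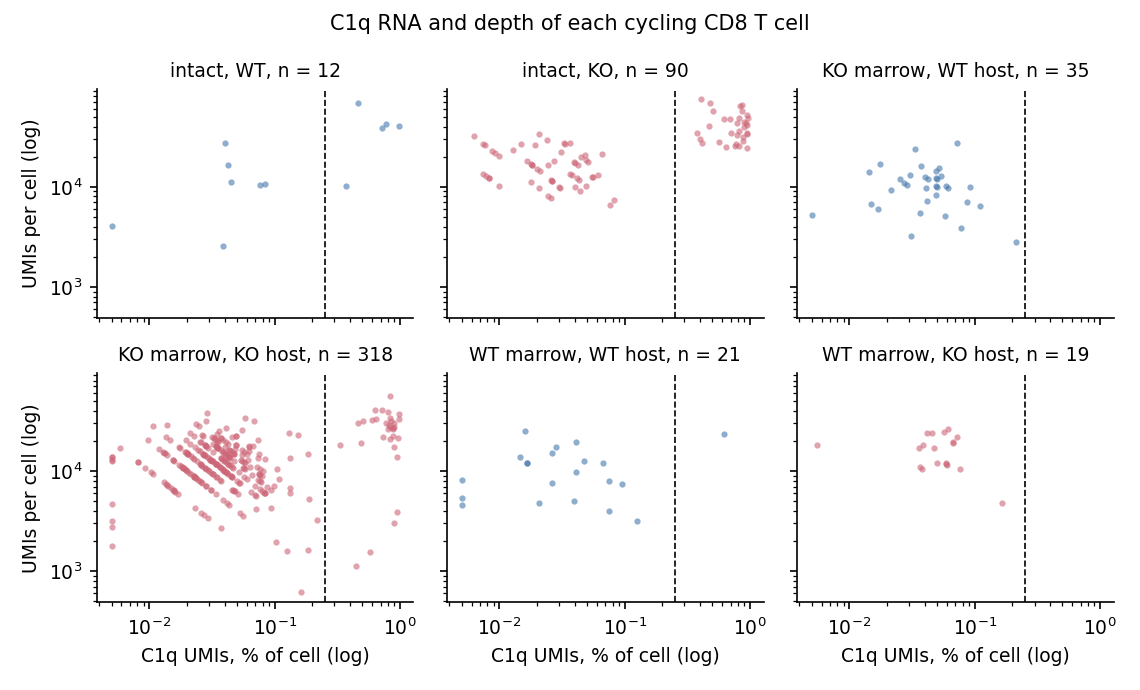
Each point is a cycling CD8 T cell, with its C1q share of UMIs (%, log axis, cells at 0 set at the left edge) against its UMI count (log axis), 1 panel per library, and a dashed line at 0.25%. Intact KO and KO marrow in KO host hold 33 and 32 cells above the line, and KO marrow in WT host and WT marrow in KO host hold 0.

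Promoters of division genes were searched for 3 kinds of sequence word that cell-cycle factors are known to read. These 4 are printed because they belong to the rule genes and to 1 gene of each phase, and hold examples of each kind. Each is the 150 bases before the RefSeq start in build GRCm38.p6, on the gene's strand. Capitals mark the CHR word TTTGAA, the CCAAT box and the E2F words TTTGGCGC, TTTCCCGC, TTTGCCGC and TTTCGCGC, on either strand, with overlapping words joined. All 4 genes lie on the minus strand. The windows are chr7:135716380-135716529 for Mki67, chr11:99024190-99024339 for Top2a, chr10:69352913-69353062 for Cdk1 (the mitotic kinase) and chr1:128359706-128359855 for Mcm6 (a helicase subunit of S phase).
Mki67: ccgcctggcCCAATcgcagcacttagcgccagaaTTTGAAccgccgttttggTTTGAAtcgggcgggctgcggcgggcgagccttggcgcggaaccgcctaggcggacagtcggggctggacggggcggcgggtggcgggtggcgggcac
Top2a: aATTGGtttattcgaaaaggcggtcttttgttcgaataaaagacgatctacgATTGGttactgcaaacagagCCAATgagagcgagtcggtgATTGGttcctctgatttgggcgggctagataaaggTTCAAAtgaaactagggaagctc
Cdk1: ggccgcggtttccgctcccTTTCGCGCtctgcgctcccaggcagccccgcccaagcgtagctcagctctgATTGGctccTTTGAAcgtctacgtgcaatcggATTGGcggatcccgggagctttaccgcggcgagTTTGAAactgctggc
Mcm6: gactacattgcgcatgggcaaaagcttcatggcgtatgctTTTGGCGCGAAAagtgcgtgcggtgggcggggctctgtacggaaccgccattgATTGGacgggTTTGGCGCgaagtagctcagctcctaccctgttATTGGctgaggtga
Mki67 holds 2 CHR words and 1 CCAAT box, Top2a 1 CHR word and 4 CCAAT boxes, Cdk1 2 CHR words, 2 CCAAT boxes and 1 E2F word, and Mcm6 no CHR word, 2 CCAAT boxes and 3 E2F words. Of 4 other division genes searched in the same window, Birc5 held none of the words, Pclaf 2 CCAAT boxes only, Rrm2 (ribonucleotide reductase) 1 CCAAT box only, and Mcm5 2 CCAAT boxes and 1 E2F word. Over windows of 300 bases (250 before and 50 after the start), 67.4% of the 43 G2M list promoters that could be matched (of 50 genes) held a CHR word, against 20.2% of all 27025 genes. A CCAAT box stood in 76.7% against 41.1%, both words in 55.8% against 7.97%, and an E2F word in 4.65% against 2.60%. The S list had a promoter for only 32 of 45 genes, under the 80% needed, so that count is void and is not given. These are matches of letters, not measured sites.

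The cycling share of CD8 T cells was higher in KO hosts than in WT hosts in each of the 3 pairs. It was 22.6% in intact KO (90 of 399 cells, exact binomial 95% interval 18.5 to 27.0%) and 14.3% in intact WT (12 of 84, 7.61 to 23.6%). With KO marrow it was 22.9% in KO hosts (318 of 1386, 20.8 to 25.2%) and 13.8% in WT hosts (35 of 253, 9.83 to 18.7%). With WT marrow it was 22.4% in KO hosts (19 of 85, 14.0 to 32.7%) and 14.3% in WT hosts (21 of 147, 9.07 to 21.0%). The intervals cover counting error only. The 3 KO-host libraries lay above all 3 WT-host libraries, by 1.60-fold (log2 0.68, with pair values of 0.66, 0.73 and 0.65). The two-sided exact permutation test of 3 against 3 gave p = 0.1, the smallest it can give. Marrow genotype showed no such order. The log2 ratio of KO to WT marrow was 0.22 (exact p = 0.8) and in the transplanted libraries alone -0.0044, where the host ratio was 0.69 (exact p = 0.33, the smallest that 2 against 2 allows).

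The host difference in the share was recomputed at a fixed depth, in low-C1q cells and with other division genes. KO-host cells were deeper: the median UMI count of the other CD8 T cells was 7619, 6156, 6388, 5676, 7508.5 and 6219 by library. With each cell thinned to 2000 UMIs the shares were 8.93, 4.88, 11.0, 7.94, 11.8 and 5.52% (host log2 ratio 0.81). Among cells under 0.25% C1q they were 17.98, 9.21, 22.3, 14.0, 22.4 and 14.1% (log2 0.77). Counting instead cells with at least 5 UMIs in 2000 from the S and G2M lists without Mki67 and Top2a gave log2 0.65. KO hosts were higher in 3 of 3 pairs each time, with exact p = 0.1, the smallest possible. Macrophages of the same libraries with at least 2 UMIs of Mki67 and Top2a made up 19.98, 22.6, 15.5, 10.2, 15.1 and 14.5%, an order that did not part KO from WT hosts. As a share of all cells kept, cycling CD8 T cells were 1.28, 0.168, 3.91, 0.596, 0.330 and 0.323%. The CD8 T-cell share of all cells kept was 5.68, 1.18, 17.0, 4.30, 1.48 and 2.26%, lower in the KO host than in the WT host with WT marrow and higher in the other pairs.

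**Figure D2:**
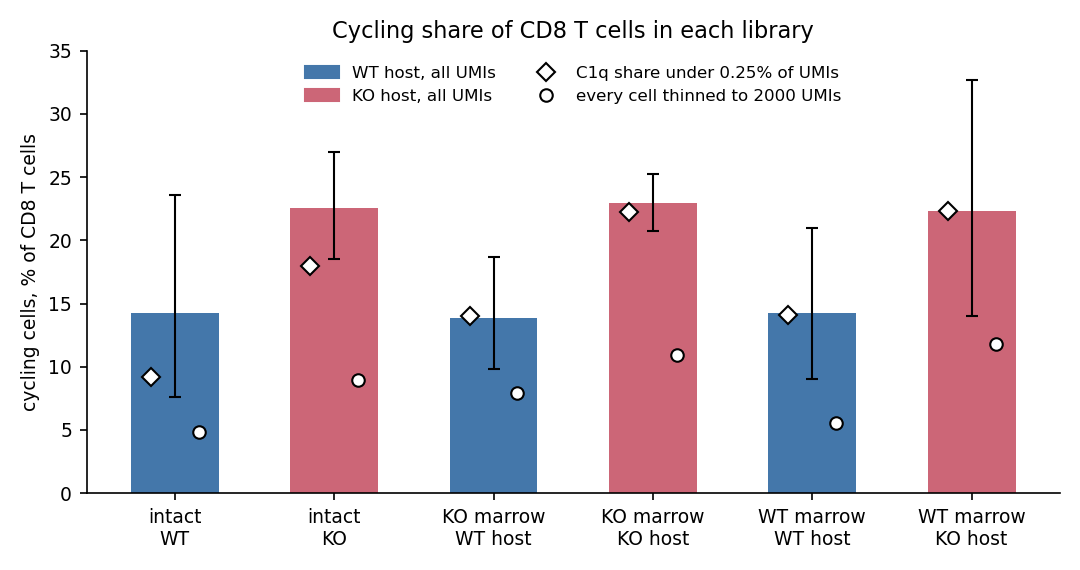
Cycling share of CD8 T cells (%) in each of the 6 libraries, bars with exact binomial 95% intervals, diamonds for cells under 0.25% C1q and circles for cells thinned to 2000 UMIs. The 3 KO-host libraries lie at 22.4 to 22.9% and the 3 WT-host libraries at 13.8 to 14.3%.

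The CD8 T cells were also split by a UMI of Havcr2. Cells that held one gave a host log2 ratio of the cycling share of 0.41 (exact p = 0.5) and 0.82 (exact p = 0.1) under 0.25% C1q. Cells without one gave 0.61 (exact p = 0.1) and 0.56 (exact p = 0.3). Strata rest on as few as 2 cycling cells in a library (1 under 0.25% C1q), deeper cells are more likely to hold any given UMI, and the difference between the strata was not tested.

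S and G2M genes of the members overlapped between genotypes. The S list took 0.288, 0.190, 0.467, 0.403, 0.449 and 0.469% of the members' UMIs, against 0.0768 to 0.125% in the other CD8 T cells. The G2M list without Mki67 and Top2a took 0.352, 0.295, 0.555, 0.718, 0.771 and 0.629% against 0.0484 to 0.0780%. Both intact libraries were lowest in both lists, and they also hold the highest macrophage marker sums. Among low-C1q members the S list took 0.417, 0.281, 0.515, 0.403, 0.449 and 0.520%, so intact KO lay above KO marrow in WT host. The G2M list there took 0.504, 0.546, 0.594, 0.718, 0.771 and 0.696%, with both intact libraries again lowest. With all members the log2 ratio between hosts was 0.25 for the S list (exact p = 0.7) and 0.059 for the G2M list (exact p = 0.9). Between marrows it was 0.15 (exact p = 0.9) and -0.0096 (exact p = 1). The ratio of S to G2M list UMIs was 0.819, 0.646, 0.842, 0.562, 0.582 and 0.746, with a host log2 ratio of 0.19 (exact p = 0.4). The G2M and S directions turned when single libraries were left out.

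**Figure D3:**
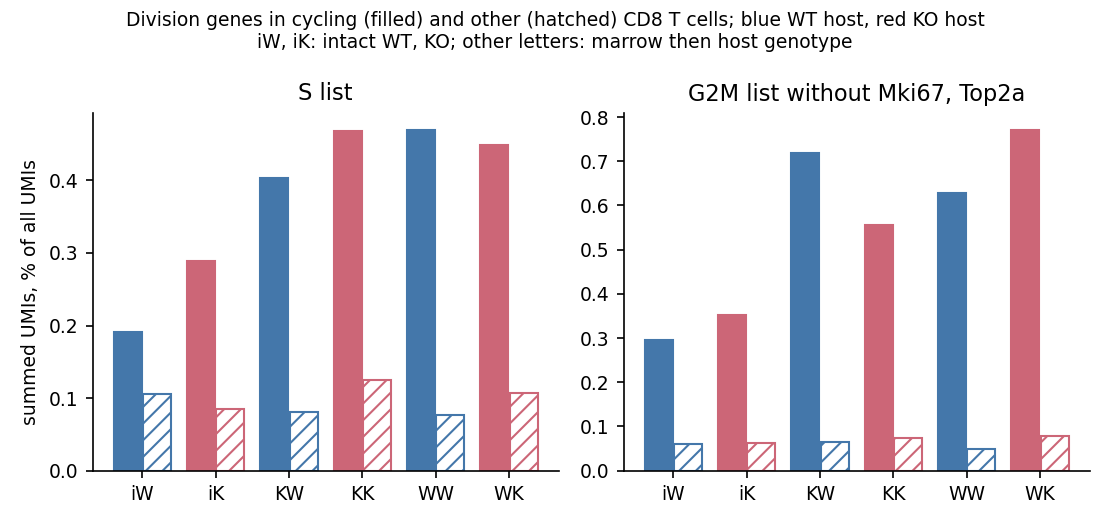
UMIs of the S list (left) and the G2M list without Mki67 and Top2a (right) as a percentage of all UMIs, in cycling (filled) and other (hatched) CD8 T cells of each library, blue for WT and red for KO hosts. Members are above the other cells in all 6 libraries in both panels, and the intact libraries' members are the lowest.

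The rule's threshold took a mixed edge. The 119 members with exactly 2 UMIs of Mki67 and Top2a had the S list at 0.179% and the G2M list at 0.0843% of UMIs, with Birc5 at 18.5 CPM and Pclaf at 34.7 CPM. The 404 other cells with 1 UMI stood at 0.122% and 0.0735%, with Birc5 and Pclaf at 13.2 CPM each. The 376 members with 3 or more stood at 0.448% and 0.591%, with Birc5 at 334 CPM and Pclaf at 498 CPM. Median UMIs were 6220 in cells with 0 UMIs of the pair, 7438.5 with 1, 9630 with 2 and 14514.5 with 3 or more.

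Members held more RNA per barcode than the other CD8 T cells. Their median UMI count was 22669.5, 13831.5, 12646, 10200, 16930 and 9741, which is 2.98, 2.25, 1.98, 1.80, 2.25 and 1.57 times that of the other cells. The mean log2 ratio was 1.07 and for genes per cell 0.69, higher in 6 of 6 libraries (two-sided exact sign-flip test, p = 0.031, the smallest possible). A rule that asks for 2 UMIs takes deeper cells by itself. With membership decided on counts thinned to 2000 UMIs the mean log2 ratios were 1.08 and 0.70 (exact p = 0.031). With low-C1q cells and thinned membership together they were 0.77 and 0.58, higher in 5 of 6 libraries (exact p = 0.0625).

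Cycling cells were next compared with the other CD8 T cells of the same library, gene by gene, by edgeR's quasi-likelihood test on UMIs summed per library and state, with the library as a block and Benjamini-Hochberg adjusted p under 0.05. Of 8407 genes tested, 1410 (16.8%) passed, 834 higher in cycling cells (9.92%) and 576 lower (6.85%). Without scaling beyond total UMIs 1454 passed, 1102 higher and 352 lower, and the median of all genes was 0.09 against -0.0057 on the log2 scale. Among low-C1q cells 1691 of 7951 (21.3%) passed, and 1182 genes passed in both, which is 83.8% of the first list and 69.9% of the second, all with the same sign.

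Division genes are what the rule selects, so they are described only. The S list was higher in 44 of 45 genes tested, with a median log2 fold change of 1.93, and the G2M list in 45 of 45, with a median of 4.36. Histone and chromatin genes were higher in 18 of 19 and nucleotide synthesis genes in 9 of 19. Outside these lists, the genes highest in cycling cells were still parts of the division machinery. Pbk, a mitotic kinase, was at 22.1, 17.8, 40.5, 64.4, 47.8 and 69.2 CPM in members and at most 0.626 CPM in the other cells, a log2 fold change of 7.07. Kif14 (7.04) and Kif4 (6.67), mitotic kinesins, Aspm (6.70), a spindle pole protein, Neil3 (6.62), a DNA glycosylase, and Esco2 (6.39), which ties sister chromatids, followed.

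Cell-cycle control genes passed in both directions. Of 26 tested, 17 were higher in cycling cells and 3 lower (Cdkn1b, Btg1 and Ccnd2). Without KO marrow in KO host 6 of 23 were higher and 3 lower. The higher genes included CDK inhibitors (Cdkn1a, Cdkn2a, Cdkn2c and Cdkn2d) and the pocket proteins Rb1 and Rbl1, which restrain the cycle, besides Cdk2, E2f1 and Foxm1, which drive it. Cdkn1b, the CDK inhibitor p27, was at 103, 99.5, 89.8, 156, 98.8 and 138 CPM in members and 138, 105, 124, 206, 213 and 198 CPM in the other cells. It was lower in all 6 libraries, as were 6.0% of all genes tested (log2 -0.59, SE 0.12, edgeR adjusted p = 0.0014). Btg1, an antiproliferative gene of resting lymphocytes, was at 509, 394, 487, 751, 618 and 675 CPM against 669, 529, 676, 1138, 1143 and 1112 CPM (log2 -0.68, SE 0.11, adjusted p = 1.1e-04). Ccnd2, a D-type cyclin, was also lower, by edgeR at log2 -0.53 (adjusted p = 0.016). Cdk4, the kinase that D cyclins switch on, was higher at 0.74 (adjusted p = 0.0068) in all libraries but intact WT, where it was at 64.0 against 81.3 CPM. Myc, a driver of growth in dividing lymphocytes, was higher at 0.60 (adjusted p = 0.048), but lost the call without any library other than intact WT. Cdk4 lost it without KO marrow in KO host, and Ccnd2 without WT marrow in KO host. Low-C1q cells gave Cdkn1b -0.57, Btg1 -0.72, Ccnd2 -0.51, Cdk4 0.95 and Myc 0.78, all past the threshold.

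The naive and memory list was lower as a group. Of 18 genes tested, 14 were lower and 1 higher, with a median log2 fold change of -0.78 against -0.0057 over all genes. Among the lower genes were the transcription factors Tcf7, Lef1, Klf2, Bach2 and Foxo1 and the survival gene Bcl2. Lef1, a partner of TCF1 in resting T cells, was at 140, 167, 3.60, 75.1, 41.4 and 43.3 CPM in members and 315, 575, 8.90, 189, 63.8 and 89.6 CPM in the other cells. It was lower in 6 of 6 libraries (log2 -1.40, SE 0.15, edgeR adjusted p = 1.3e-06), and its level in KO marrow in KO host was far below that of any other library in both states. Il7r, the interleukin-7 receptor that keeps resting T cells alive, was at 170, 60.4, 143, 83.2, 112 and 43.3 CPM against 275, 201, 215, 178, 202 and 132 CPM (log2 -1.04, SE 0.15, adjusted p = 6.0e-05). S1pr1, the receptor for exit from tissue, was lower at log2 -1.37 (SE 0.19, adjusted p = 3.7e-05). Tcf7 was at 34.2, 56.9, 6.08, 69.8, 54.2 and 73.5 CPM against 67.6, 203, 8.90, 130, 85.7 and 42.6 CPM, lower in 5 libraries and higher in WT marrow in WT host (log2 -0.91, SE 0.23, adjusted p = 0.015). The higher gene was Id3, a partner of memory-like programmes, at 18.6, 10.7, 39.6, 137, 12.7 and 69.2 CPM against 11.6, 22.2, 26.8, 44.0, 14.6 and 29.1 CPM (log2 0.71, adjusted p = 0.026), with 2 libraries in the other direction, and it lost the call without any of 4 libraries. Tcf7 lost it without intact KO or without KO marrow in KO host, at -0.82 and -0.94.

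Among low-C1q cells 10 of the 18 were lower and 1 higher, with a median of -0.77. Lef1 (-1.55, edgeR adjusted p = 0.013), Tcf7 (-0.95, 0.017), Il7r (-0.97, 3.0e-07) and Ccr7 (-0.61, 0.045) passed again. S1pr1 (-1.66, adjusted p = 0.10) no longer did. Without the library block none of the 18 passed, at a median of -0.83. With cells thinned to 2000 UMIs 12 of 16 were lower, at a median of -1.08. For Il7r the share of cells with a UMI at 2000 UMIs was lower in cycling cells in 6 of 6 libraries (mean log odds -0.72, exact sign-flip p = 0.031, the smallest possible, adjusted 0.5 over 16 genes). No gene of the 16 passed after adjustment. With that smallest p, 1 gene alone cannot pass over 16 genes, so the lack of calls decides nothing.

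Effector and exhaustion genes are set beside all genes tested, of which 9.92% passed as higher and 6.85% as lower. Of 22 cytotoxic genes 3 were lower and 0 higher in cycling cells, at a median of -0.21. Counts this small were not tested against the shares of all genes. Gzmb, the protease granzyme B, was at 798, 338, 1833, 1036, 695 and 1077 CPM in members and 625, 299, 1987, 838, 851 and 1847 CPM in the other cells, a log2 difference of -0.16 (SE 0.13, edgeR adjusted p = 0.48). Prf1, the pore-forming perforin, had a log2 difference of -0.55 (SE 0.40, adjusted p = 0.45). Nkg7, a granule membrane protein needed for killing, was at 740, 412, 1774, 1353, 1297 and 1562 CPM against 927, 824, 2382, 1320, 2291 and 1795 CPM (log2 -0.55, SE 0.13, adjusted p = 0.0071). Fasl, the death ligand, was also lower. Ccl5, a chemokine of effector and memory cells, was lower at log2 -1.21 (adjusted p = 0.0078), but at -1.24 with adjusted p = 0.24 among low-C1q cells. Of 19 exhaustion genes 2 were lower, Pdcd1 and Cd244a, and 0 higher. Pdcd1, the checkpoint receptor PD-1, was at 227, 92.4, 291, 188, 258 and 99.5 CPM against 271, 113, 435, 206, 468 and 255 CPM, lower in 6 of 6 libraries (log2 -0.64, SE 0.13, adjusted p = 0.0024; low-C1q -0.49, adjusted p = 0.015).

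Of 17 homing and residency genes 7 were lower and 0 higher, where 6.85% of all genes tested were lower. Among the 7 were the chemokine receptors Cxcr3 and Ccr7 and the integrin chains Itga1 and Itgb7. Outside the lists, Styk1, a kinase-like receptor, was lower at 48.1, 3.55, 16.4, 26.8, 6.37 and 4.33 CPM against 98.7, 51.7, 47.0, 27.7, 52.9 and 37.0 CPM (log2 -1.47, SE 0.25, edgeR adjusted p = 6.0e-04). Also lower were Tcp11l2 (-1.66), Pik3ip1 (-1.25), a brake on PI3 kinase in resting T cells, and Cmah (-1.23), which makes a sialic acid. Of 18 glycolysis genes 1 was higher (Tpi1, an enzyme of glycolysis), and of 18 mitochondrial genes 1 (Cox5a, of the respiratory chain). Among low-C1q cells it was 6 and 5.

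**Figure D4:**
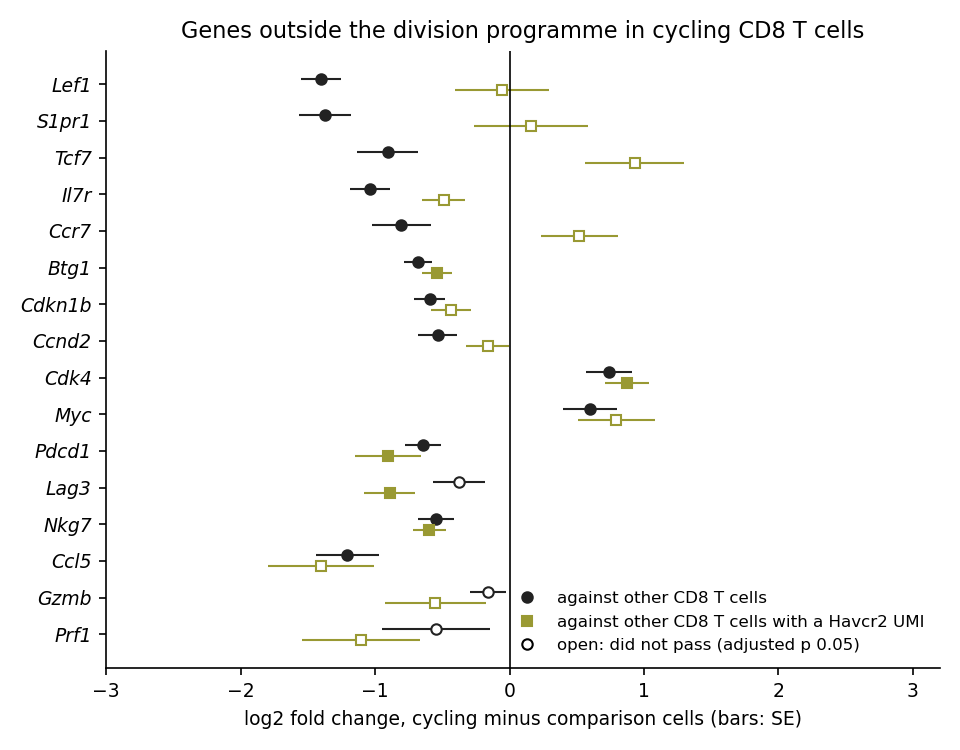
Log2 fold change (points, with standard-error bars) of genes outside the S, G2M, histone and nucleotide lists in cycling CD8 T cells, against the other CD8 T cells (black) and against those with a Havcr2 UMI (olive), open where the adjusted p was not under 0.05. Btg1, Cdkn1b, Ccnd2, Cdk4 and Myc are cell-cycle control genes. Lef1, Tcf7 and Ccr7 lie below 0 against all other CD8 T cells, while Pdcd1 and Nkg7 lie below 0 in both.

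Cycling cells were also compared with the 568 other CD8 T cells that held a UMI of Havcr2, a receptor gained after repeated stimulation. These were 94, 10, 402, 30, 24 and 8 cells by library. Members themselves held a Havcr2 UMI in 52, 6, 158, 5, 8 and 2 cells. With cells thinned to 2000 UMIs the share with a Havcr2 UMI was higher in cycling than in other cells in 3 of 6 libraries (mean log odds 0.027, exact sign-flip p = 0.91). Of 5841 genes tested 590 (10.1%) passed, 445 higher (7.62%) and 145 lower (2.48%) in cycling cells, and 685 of 5117 (13.4%) among low-C1q cells. Of the naive and memory genes 1 of 18 passed against these Havcr2-positive cells, Cd27, a costimulatory receptor, at log2 -0.59 (edgeR adjusted p = 0.030, lost without any of 3 libraries). Lef1 and Ccr7 did not pass. Tcf7, at 27.0, 55.7, 1.41, 37.1, 0 and 0 CPM in the Havcr2-positive cells, had a log2 difference of 0.93 (adjusted p = 0.15), and among low-C1q cells 1.76 (adjusted p = 0.0059). The comparison cells were selected on Havcr2, itself an exhaustion gene, and the members were not, and macrophages held 55.3 to 122 CPM of Havcr2 themselves. The difference between this comparison and the one before was not tested.

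Of 17 exhaustion genes tested besides Havcr2, 4 were lower in members than in the Havcr2-positive cells (Pdcd1, Lag3, Cd244a and Id2), 0 were higher, and the rest did not pass. Without KO marrow in KO host 2 of 16 were lower, and without the library block 0 of 14. Lag3, an inhibitory receptor for MHC class II, was at 46.4, 0, 66.6, 37.6, 54.2 and 26.0 CPM in members and 63.3, 12.4, 115, 78.3, 178 and 35.8 CPM in the Havcr2-positive cells, lower in 6 of 6 libraries, as were 4.35% of all genes tested (log2 -0.89, SE 0.19, edgeR adjusted p = 0.0028). The Havcr2-positive cells of intact WT and of WT marrow in WT host were only 10 and 8, so levels and directions there rest on little RNA. Pdcd1 gave -0.90 (SE 0.25, adjusted p = 0.047, lost without any of 4 libraries) and Nkg7 -0.60 (SE 0.12, adjusted p = 0.0022). Hopx, a regulator of effector T cells, gave -0.96 (adjusted p = 3.2e-05). Xcl1, a chemokine that draws cross-presenting dendritic cells, was the 1 cytotoxic-list gene higher, at 187, 32.0, 82.1, 276, 252 and 286 CPM against 73.2, 49.5, 17.8, 24.7, 18.2 and 0 CPM (log2 2.07, SE 0.47, adjusted p = 0.046), a call lost without any library other than intact WT. When a Havcr2 UMI was required of both states, 374 genes passed, among them 3 of 17 exhaustion genes and 1 of 13 naive and memory genes, all lower.

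Within cycling cells, host genotype was tested in a model with terms for transplantation, host and marrow. Of 5555 genes 7 passed (0.126%), 5 higher in KO hosts (0.09%) and 2 lower (0.036%), and 285 had an unadjusted p under 0.05. Among low-C1q members 25 of 5095 passed (0.491%), 6 of them shared with the 7. The model has 2 residual degrees of freedom. It was tried on counts simulated from pooled mean levels and the real library sizes. There it recovered 94% of genes changed by log2 2 and 25.5% of those changed by log2 1. The simulation gave every gene the same spread and no other difference between libraries, so it does not give the recovery in the real counts.

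Prf1 (ENSMUSG00000037202) was the effector gene that rose in cycling cells of KO hosts. Its level in intact mice was 353 CPM (KO) and 10.7 CPM (WT). In recipients of KO marrow it was 639 CPM in the KO host and 72.5 CPM in the WT host, and in recipients of WT marrow 328 CPM and 26.0 CPM. The 3 KO-host libraries lay above all 3 WT-host libraries. The log2 fold change was 3.45 (SE 0.28, edgeR adjusted p = 0.0037), and 3.59 (SE 0.35, adjusted p = 1.4e-04) among low-C1q members. It lost the call without WT marrow in WT host (adjusted p = 0.12), but kept it in all 6 such fits among low-C1q members. A UMI of Prf1 was found in 58, 2, 251, 11, 15 and 5 members, and macrophages held 0.0839 to 3.09 CPM. The other CD8 T cells showed the same order, at 198, 83.2, 720, 117, 678 and 88.5 CPM, and the host effect in cycling cells exceeded theirs by log2 1.13 (SE 0.33, adjusted p = 0.39), which did not pass. On simulated counts that test of the difference recovered only 3.16% of genes changed by log2 1, so not passing says little. Of the 22 cytotoxic genes, Prf1 was the 1 that passed, 10 were higher in all 3 pairs and 0 lower, and the median was 0.57 against 0.010 over all genes. Of all genes tested, 13.0% were higher in all 3 pairs and 13.9% lower.

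Gzmb did not follow Prf1, with a log2 difference of 0.24 (edgeR adjusted p = 1.0). Ifng, the interferon of killer cells, was at 117, 3.55, 182, 29.5, 156 and 56.2 CPM, higher in all 3 pairs (log2 2.49, SE 0.47, adjusted p = 0.18), and passed among low-C1q members (2.86, SE 0.34, adjusted p = 6.9e-04), though not without KO marrow in WT host. Nrgn, a calmodulin-binding protein, was at 216, 10.7, 321, 53.7, 210 and 0 CPM (log2 3.30, adjusted p = 0.18; low-C1q 3.24, adjusted p = 0.0048, but 0.087 without KO marrow in KO host). Gzme, another granzyme, was at 427, 0, 578, 0, 156 and 17.3 CPM, with 3 cells behind the value of 156 (log2 6.02, adjusted p = 0.25).

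Besides Prf1, 4 genes passed as higher in KO hosts. Ccl1, a chemokine of activated T cells, was at 39.9, 0, 94.3, 2.68, 293 and 4.33 CPM (log2 6.08, SE 0.53, edgeR adjusted p = 0.0037), found in 12, 0, 27, 1, 2 and 1 cells, so that 2 cells made the highest value. Penk, the enkephalin precursor, was at 108, 0, 44.3, 0, 63.7 and 0 CPM in 11, 0, 46, 0, 3 and 0 cells (adjusted p = 0.039; low-C1q 0.0014). Its fitted fold change rests on a group at 0 and is no measure of size. Serpinb9b, of the family of granzyme B inhibitors, was at 6.50, 0, 225, 8.05, 92.4 and 0 CPM (log2 5.12, SE 0.55, adjusted p = 0.010; low-C1q adjusted p = 2.0e-04), and intact KO lay below KO marrow in WT host. Ccl1 and Serpinb9b lost the call without WT marrow in WT host, and Penk without that library or intact KO. Among low-C1q members Ccl1 and Penk kept it in all 6 such fits, and Serpinb9b lost it without KO marrow in WT host. Cxcl9, a chemokine that interferon induces in macrophages, was at 645, 0, 167, 2.68, 3.19 and 0 CPM (log2 5.91, adjusted p = 0.010), lost without intact KO or without either transplanted WT host. Among low-C1q members it was at 31.5, 0, 34.6, 2.68, 3.19 and 0 CPM and did not pass (adjusted p = 0.20), and macrophages held 28.5 to 2266 CPM.

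The 2 genes lower in KO hosts were S100a8 and S100a9, neutrophil proteins that buffer calcium. S100a8 was at 11.7, 10.7, 37.8, 625, 6.37 and 13.0 CPM and S100a9 at 4.77, 3.55, 44.8, 582, 9.56 and 21.6 CPM, so KO marrow in WT host alone stood apart, with 8 and 7 cells holding a UMI. Without that library, intact KO or WT marrow in WT host neither passed. It is the library whose members had the neutrophil marker sum of 1318 CPM, whose part in these 2 results was not tested.

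Low-C1q members alone added other genes that stood higher in KO hosts. Tnfrsf4, the costimulatory receptor OX40, was at 276, 60.8, 250, 61.7, 207 and 9.64 CPM in them (log2 2.39, edgeR adjusted p = 0.0051). Nr4a2, a nuclear receptor that antigen-receptor signals induce, was at 393, 48.6, 324, 121, 223 and 48.2 CPM (log2 1.81, adjusted p = 0.0056). Dusp4, a MAP kinase phosphatase (2.50, adjusted p = 0.022), and Mt1, a metallothionein (2.12, adjusted p = 0.0012), also passed there. Id3 was lower in KO hosts (-2.03, adjusted p = 0.015), at 11.5, 24.3, 36.5, 137, 12.7 and 67.5 CPM. Each of these 5 calls was lost without KO marrow in WT host, and all but Mt1 also without KO marrow in KO host. With all members none of these 5 passed (adjusted p = 0.061 to 0.69). Pdcd1 had a log2 difference of 0.95 (adjusted p = 0.42) and 1.06 among low-C1q members (adjusted p = 0.091). Of 17 naive and memory genes 2 were lower among low-C1q members (Id3 and Ly6c2) and 0 higher, at a median of -1.21, against 0 passing with all members at a median of -0.76. Of 43 G2M genes 0 passed among low-C1q members, at a median of -0.056. These low-C1q values rest on 57, 7, 286, 35, 19 and 20 cells. A host effect that differed between cycling and other CD8 T cells was called for 5 of 8407 genes (0.0595%), and a marrow effect that differed for 4 (0.0476%). They are given in the closing section.

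**Figure D5:**
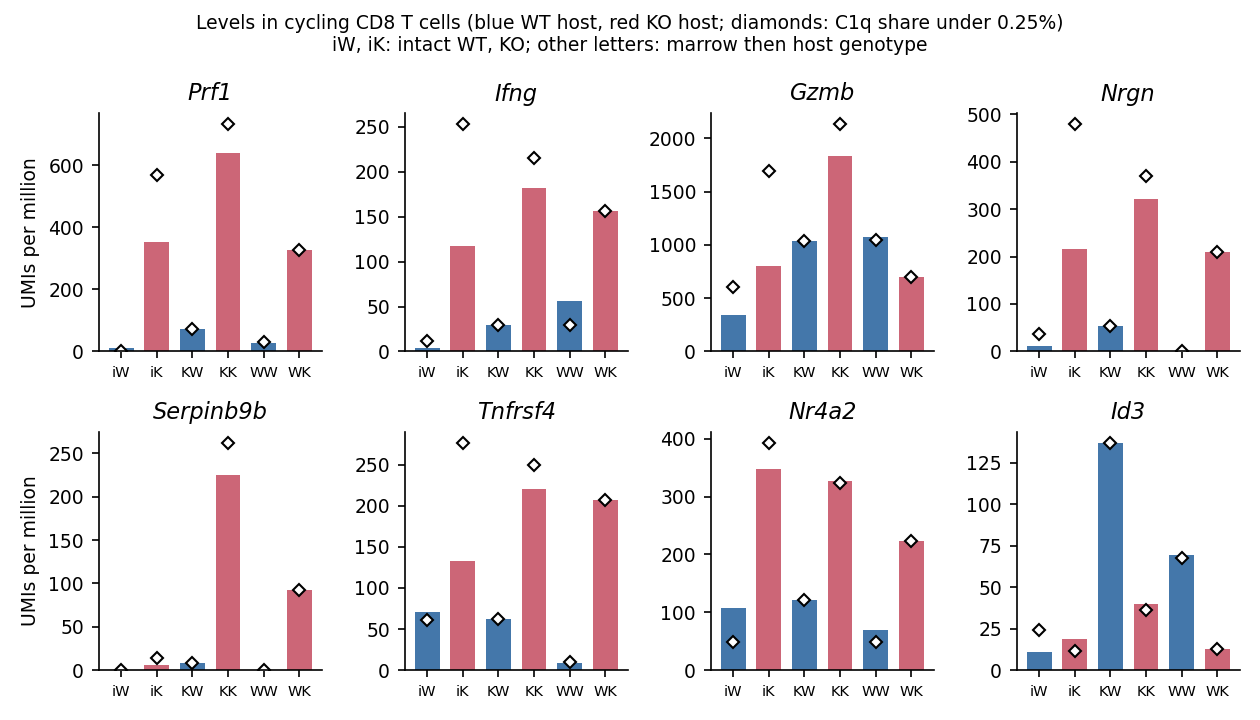
Level (CPM) of 8 genes of the host comparison in cycling CD8 T cells of each library, bars in blue for WT and red for KO hosts, with diamonds for low-C1q members. Prf1 spans 328 to 639 CPM in red bars and 10.7 to 72.5 CPM in blue bars, while the hosts overlap in Gzmb.

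Marrow genotype called 2 of 5555 genes (0.036%), with 194 at an unadjusted p under 0.05, and 11 of 5095 (0.216%) among low-C1q members. Mtdh itself was at 27.7, 99.5, 20.9, 16.1, 57.3 and 47.6 CPM in members, so that every KO-marrow library lay below every WT-marrow library (9.76% of genes were lower in all 3 pairs; log2 -1.71, SE 0.35, edgeR adjusted p = 0.48). It was found in 35, 7, 44, 4, 10 and 9 members. Reads from the end of an RNA do not say whether a deleted stretch of the gene is missing. The 2 genes that passed were Cxcl9 (log2 5.58, adjusted p = 0.034; low-C1q 0.44) and S100a8 (4.54, adjusted p = 0.034; low-C1q 0.0019), with the levels given above. Both lost the call without intact KO or WT marrow in WT host, S100a8 also without KO marrow in WT host, and Cxcl9 also without WT marrow in KO host.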

How the data were processed

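Raw UMI counts per gene and barcode were deposited, made by the authors with Cell Ranger 7.0.1 for the intact and 6.1.1 for the transplanted libraries, per the file headers, on mm10, per the submitters' processing notes. Chemistry was 10x 3' v3.1, per the labels' protocols. How introns were treated was not given in the sources used here. Seurat is named in the notes, and no cell annotation of the authors was used.

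Cells were gated as the report states. UMIs were summed per library over the 30406 gene identifiers that both annotations share (32285 and 31053 genes), and CPM is UMIs per 1000000 of that sum. Genes were tested with edgeR 4.0.16 (TMM, filterByExpr, robust quasi-likelihood F test, Benjamini-Hochberg over all genes, threshold 0.05) in R 4.3.3, checked on simulated data. The standard error of a log2 fold change was taken from its F statistic. Host and marrow models had 2 residual degrees of freedom and cycling against other cells 5. Shares were tested by exact permutation of libraries.

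An automatic doublet caller marked at most 4 cells per library and was taken not to have worked, so the alternative removes the 6% of barcodes with the highest scores. Alternatives were another scaling, DESeq2 1.42.0, no count filter, thinning to 2000 UMIs, other thresholds, and leaving out each library. Named genes were the largest called changes with 1 sign in all libraries or pairs, the most abundant genes of each list, and Mtdh. Where few host or marrow genes passed, 5 uncalled genes per direction with at least 100 UMIs were added, those whose weakest pair ratio was strongest. Fasl, Ccnd2, Kif4, Dusp4, Mt1, Nr4a2, Tnfrsf4, Hopx and other single genes outside that rule were named after their values were seen. Of the listed genes, 1 counts in its lists but its own values are not reported here. The members and gene lists were chosen with earlier results of these data known.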

Additional observations from a re-analysis of the deposited data

Results flagged for a closer look

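For 9 results the effect of genotype differed between cycling and other CD8 T cells by the test of the difference itself. The host effect called 5 of 8407 genes (0.0595%) and the marrow effect 4 (0.0476%), and 16 (0.201%) and 32 (0.402%) of 7951 among low-C1q cells. On counts simulated in the same way as for the host model, with the same limits, the test of host differences recovered 42.4% of genes changed by log2 2. It recovered 3.16% of those changed by log2 1. Values are log2 differences, cycling minus other cells, by edgeR.

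Ccl1 had a larger host effect in cycling cells, by 5.86 (adjusted p = 1.3e-04). It was at 39.9, 0, 94.3, 2.68, 293 and 4.33 CPM in cycling cells and 23.5, 0, 23.3, 0.709, 25.5 and 49.3 CPM in the other cells, in the library order of the report, with 293 CPM from 2 cells. Without WT marrow in KO host, or without WT marrow in WT host, it lost the call, and its value went as low as 0.23. Myb, a transcription factor of dividing progenitors, differed by 5.28 (adjusted p = 0.0012), at 41.2, 0, 24.5, 0, 31.9 and 4.33 CPM in cycling and 20.4, 18.5, 7.33, 26.9, 23.7 and 7.84 CPM in the other cells. KO-host libraries lay above WT-host libraries in cycling cells and not in the other cells. Myb kept the call among low-C1q cells (5.16, adjusted p = 4.6e-04) and lost it without KO marrow in WT host.

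Cxcl3, a neutrophil-drawing chemokine, differed by 4.89 between hosts (low-C1q 5.31) and lost the call without KO marrow in KO host or KO marrow in WT host. Plbd1, which macrophages held at 74.4 to 312 CPM, differed by 4.53 (adjusted p = 0.028; low-C1q 0.91). It lost the call without KO marrow in KO host, KO marrow in WT host or WT marrow in KO host. Chil3, a chitinase-like protein of myeloid cells, differed by -4.09 for host and by 3.81 for marrow. Its 682 CPM in cycling cells of KO marrow in WT host came from 3 cells and its 2459 CPM in intact WT from 6 cells, and without KO marrow in WT host neither value passed.

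Mgp, a matrix protein, differed by 3.27 for marrow, with 255 CPM in cycling cells of KO marrow in WT host. Tnfaip2 differed by -2.40 (adjusted p = 0.033) with all members and by 0.30 among low-C1q cells, and macrophages held 123 to 549 CPM. Mgp and Tnfaip2 lost the call without KO marrow in WT host or WT marrow in WT host. Dapl1, a gene of naive and memory T cells, differed by -1.73 (adjusted p = 0.0041; low-C1q -2.54). It was at 26.0, 156, 12.2, 145, 325 and 26.0 CPM in cycling cells and lost the call without WT marrow in KO host.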

How the results depend on the processing

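No paired analysis was possible because each group holds 1 library, so no replicate number could serve as a block; the pairs of the report match libraries by genotype and transplantation. The library block in cycling against other cells is different: without it 270 genes passed instead of 1410, and 120 instead of 590 against Havcr2-positive cells, and Lef1, Il7r, S1pr1, Btg1, Cdkn1b, Nkg7 and Pdcd1 no longer passed. Thinning to 2000 UMIs left 525 and 94. Against Havcr2-positive cells no count filter gave 931, a Havcr2 UMI in both states 374 (378 among low-C1q cells), and the 2 libraries with at least 50 such cells 988. Host calls in cycling cells numbered 14 without the highest doublet scores, 25 among low-C1q members, 88 with no count filter and 19 by DESeq2, against 7. Marrow calls numbered 0, 11 and 32 for the first 3 of these, and 0 without the host term, against 2. The difference of host effects called 3 genes without the highest doublet scores and 16 among low-C1q cells, and that of marrow effects 9 and 32. Leaving out each library in turn gave 1 to 91 host calls and 0 to 21 marrow calls, and among low-C1q members 7 to 153 and 3 to 104. The most came without WT marrow in KO host (91 and 21; low-C1q 90 and 18) or, among low-C1q members, without WT marrow in WT host, and without intact WT there were 57 and 13, without KO marrow in WT host 8 and 10. It gave 12 to 58 and 5 to 61 for the differences (12 to 61 where the count moved), 674 (without KO marrow in KO host) to 1666 in cycling against other cells, with 825 without intact KO, and 276 (without KO marrow in KO host) to 638 against Havcr2-positive cells. The smallest count for the marrow differences, 5, came without KO marrow in WT host. The cause was not tested.

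The host ratio of the cycling share kept its direction in all settings run on all CD8 T cells, at 0.66 to 0.69 (log2) without each library and 0.62 to 0.99 otherwise. The marrow ratio turned to -0.0044 in the transplanted libraries. The G2M list turned for host to -0.12 with at least 3 UMIs, -0.043 without the highest doublet scores and -0.080 among low-C1q members, and for marrow to 0.0072 without those scores. Without each library the S list ranged from -0.15 to 0.50 for host and from -0.28 to 0.37 for marrow (turned at -0.28 to -0.0059), and the G2M list from -0.34 to 0.36 (turned at -0.34 to -0.21) and from -0.42 to 0.27 (turned at 0.12 to 0.27). Tnfaip2 turned to 0.30 for marrow among low-C1q cells, and Chil3 turned to 0.12 for host and -0.17 for marrow without the highest doublet scores. Gzmb in cycling against other cells turned to 0.065 among low-C1q cells with no scaling. Unthinned shares of cells with a UMI turned to log odds of 0.23 for Il7r, 0.089 for Tcf7 and 0.28 for Pdcd1. The mean log2 ratio of UMIs fell short of the threshold at 0.77, and that of genes per cell at 0.58, among low-C1q cells with thinned membership. Without each library these log2 ratios were 0.96 to 1.15 and 0.64 to 0.75, where 5 libraries cannot go below exact p = 0.0625. Intact WT, with 12 cycling cells, limits what depth can show.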
